A study of Mus musculus with 10 samples.

Results

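*Pgk1*, *Pgk2*, *Gapdh*, *Gapdhs*, *Ldha*, *Ldhb*, *Ldhc*, *Pdha1* and *Pdha2* were examined, which encode the somatic and the germ cell forms of 4 enzymes that carry sugar carbon from glycolysis to pyruvate, lactate and acetyl-CoA. These 9 genes were chosen by their symbols among the 20142 genes listed for the series. All 9 had a row in the table of adult testis, which lists 20007 genes. In the table of Sertoli cells, which lists 17816 genes, 8 had a row, and *Pgk2* was not analysed there. The question was how the levels of *Pgk2*, *Gapdhs*, *Ldhc* and *Pdha2*, the germ cell isoforms, stood against those of their somatic partners in each group of samples.

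Glycolysis breaks glucose down to pyruvate. Glyceraldehyde-3-phosphate dehydrogenase (GAPDH) and phosphoglycerate kinase (PGK) carry out consecutive steps of it, and the second of these yields ATP. Lactate dehydrogenase (LDH) interconverts pyruvate and lactate, and the pyruvate dehydrogenase complex, whose E1 alpha subunit (PDHA) is encoded by *Pdha1* or *Pdha2*, converts pyruvate to acetyl-CoA in mitochondria. In the testis, Sertoli cells take up glucose and pass lactate on to germ cells, and meiotic and later germ cells use isoforms of these enzymes that other tissues lack. *Pgk1* and *Pdha1* lie on the X chromosome, which is silenced in male meiosis, and *Pgk2* and *Pdha2* are autosomal copies without introns that are expressed in germ cells. GAPDHS is bound to the fibrous sheath of the sperm tail, and LDHC is the LDH subunit of spermatocytes, spermatids and sperm.

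RNF20 is an E3 ubiquitin ligase for histone H2B. The adult samples were whole testis, 3 with the genotype label WT and 3 labelled as conditional knockout of *Rnf20*. The day 7 samples were primary Sertoli cells from mice 7 days after birth, 2 *Rnf20* Flox/Flox controls, which the labels call WT, and 2 Amh-Rnf20-/-, in which Sertoli cells lose the floxed exons of *Rnf20* through a Cre that the *Amh* promoter drives. Those cells had been plated in serum and passaged, so they were adherent cultured cells. No treatment was given, the strain was not stated, and the ages of the adult mice were not stated. The growth field of the labels names adult tissue for every sample, and the age in the titles was used. The adult samples are not described in the methods of the study, and whether their controls carried the floxed allele was not stated. The methods give 3 individuals for each genotype at day 7, where 2 samples were analysed here. Where no source says that samples were separate animals, p-values measure only the spread between these samples.

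Depth was 15431912 to 16574144 estimated counts per adult sample and 17477268 to 17705347 per day 7 sample. In the adult WT samples *Rnf20* stood at 4.89, 3.32 and 4.09 FPKM (fragment counts scaled for transcript length and for depth), and in those labelled knockout at 9.16, 5.76 and 9.85 FPKM. The log2 fold change of *Rnf20* on scaled counts was 0.12 (SE 0.27, adjusted p = 0.688 by edgeR's quasi-likelihood test), -0.08 with median-ratio scaling (adjusted p = 0.804) and 0.97 with total counts (adjusted p = 0.0168). No loss of the targeted gene was detected in the adult samples labelled knockout under these 3 scalings, and the directions given below follow the labels. At day 7 *Rnf20* was at 16.6 and 16.0 FPKM in controls and at 10.3 and 12.6 FPKM in Amh-Rnf20-/- (log2 fold change -0.49, SE 0.12, adjusted p = 0.222). Counts cover the whole gene and not only the deleted exons. The adult sample labelled knockout replicate 1 stood apart from the other 2 of its group. Its chi-square per degree of freedom against them over genes was 88.1 and 118, compared with 21.4 between those 2 and 13.7 to 17.6 between WT samples.

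*Pgk2* lies on chromosome 17 from 40207018 to 40208609 on the minus strand of GRCm38.p6, and *Pdha2* lies on chromosome 3 from 141210004 to 141212355, also on the minus strand. Positions are those of RefSeq, and exons those of the GENCODE transcript with the longest coding sequence. This transcript had 1 exon for either gene. Their partners *Pgk1* (chromosome X, 106187100 to 106203699, plus strand) and *Pdha1* (chromosome X, 160122219 to 160138430, minus strand) had 11 exons each. *Gapdhs* (chromosome 7, 30729779 to 30744791, minus strand) had 11 exons and *Gapdh* (chromosome 6, 125161852 to 125166467, minus strand) had 7. *Ldha* (46842274 to 46855627) and *Ldhc* (46861263 to 46878147) are neighbours on the plus strand of chromosome 7 with 5635 bases between them, and *Ldhb* lies on chromosome 6 from 142490249 to 142507957 on the minus strand. These 3 genes had 8 exons each. The coding sequence of *Gapdhs*, at 1320 bases, was longer than the 1077 bases of *Gapdh*.

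Partners shared no long identical stretch of coding sequence. Coding sequences, taken from GENCODE M21 transcripts on GRCm38, were identical at 79.3% of the 1251 aligned bases of *Pgk2* and *Pgk1*. Identity was 75.6% for *Pdha2* and *Pdha1*, 73.7% for *Ldhc* and *Ldha*, 73.0% for *Ldha* and *Ldhb*, 71.3% for *Gapdhs* and *Gapdh* and 65.4% for *Ldhc* and *Ldhb*. In no pair did the aligned coding sequences share an identical run longer than 22 bases, and no window of 50 bases of 1 partner occurred in the other. The first 90 coding bases of the intronless copies and of their X-linked partners are shown to make this visible, with the bases that differ in capitals. At this start 23 of 90 bases differed between *Pgk2* and *Pgk1*.

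Pgk2: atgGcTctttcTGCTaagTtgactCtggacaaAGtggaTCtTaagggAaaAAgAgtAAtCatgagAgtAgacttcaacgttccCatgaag
Pgk1: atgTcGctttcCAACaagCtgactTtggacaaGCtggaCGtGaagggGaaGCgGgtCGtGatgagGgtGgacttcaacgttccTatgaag

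Between *Pdha2* and *Pdha1* 59 of the first 90 positions differed when set side by side without gaps.

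Pdha2: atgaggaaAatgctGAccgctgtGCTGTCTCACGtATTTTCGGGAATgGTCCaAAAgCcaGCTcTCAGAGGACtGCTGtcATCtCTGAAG
Pdha1: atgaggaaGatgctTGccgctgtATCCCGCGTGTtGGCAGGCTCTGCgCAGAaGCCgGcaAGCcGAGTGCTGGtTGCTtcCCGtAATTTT

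The promoters of the 4 germ cell isoforms are shown because these genes were low or high together across the adult samples, and that of *Pgk1* beside *Pgk2*. Each window runs from 250 bases before a RefSeq start to 50 after it on GRCm38.p6, is written 5′ to 3′ on the strand of the gene, and has in capitals the motifs searched on both strands. These were the CRE half-site TGACG, held by 20.8% of the 32851 promoter windows of this length, the GC box GGGCGG (35.7%), the TATA box TATAAA (13.6%) and the CCAAT box (37.4%). All 9 genes matched an entry. The *Pgk2* window, chr17:40208560-40208859, held 2 CCAAT boxes, which began at -86 and -52.

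Pgk2: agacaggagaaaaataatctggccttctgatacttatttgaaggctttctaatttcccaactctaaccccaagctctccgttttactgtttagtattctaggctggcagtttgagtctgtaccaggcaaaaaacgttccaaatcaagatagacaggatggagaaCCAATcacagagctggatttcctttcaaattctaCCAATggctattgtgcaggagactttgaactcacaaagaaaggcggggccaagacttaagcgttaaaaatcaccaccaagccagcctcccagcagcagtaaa

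The *Pgk1* window, chrX:106186850-106187149, held 5 GC boxes, of which 2 overlap, and 1 CCAAT box.

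Pgk1: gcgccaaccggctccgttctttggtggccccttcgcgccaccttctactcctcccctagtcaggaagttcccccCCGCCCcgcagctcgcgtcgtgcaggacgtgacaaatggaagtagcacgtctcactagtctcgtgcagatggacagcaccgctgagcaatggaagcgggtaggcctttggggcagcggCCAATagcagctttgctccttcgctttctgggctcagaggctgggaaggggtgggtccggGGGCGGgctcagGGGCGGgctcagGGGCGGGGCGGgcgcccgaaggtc

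In the *Ldhc* window, chr7:46861013-46861312, there were 2 CRE half-sites, at -61 and -47, and 1 GC box at -78.

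Ldhc: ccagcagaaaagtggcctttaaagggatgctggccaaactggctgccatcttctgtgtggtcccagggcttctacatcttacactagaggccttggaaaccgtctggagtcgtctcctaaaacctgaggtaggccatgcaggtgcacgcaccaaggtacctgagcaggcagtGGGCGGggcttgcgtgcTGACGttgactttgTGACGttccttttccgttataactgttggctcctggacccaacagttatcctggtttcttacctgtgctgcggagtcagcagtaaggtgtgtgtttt

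The *Gapdhs* window, chr7:30743632-30743931, held 1 CRE half-site, which began at 39 after the start.

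Gapdhs: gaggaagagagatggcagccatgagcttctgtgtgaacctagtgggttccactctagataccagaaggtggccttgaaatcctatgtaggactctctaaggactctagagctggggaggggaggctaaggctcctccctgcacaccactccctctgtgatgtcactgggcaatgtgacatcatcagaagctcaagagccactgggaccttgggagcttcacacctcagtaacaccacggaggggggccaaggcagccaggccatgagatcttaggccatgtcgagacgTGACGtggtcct

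The *Pdha2* window, chr3:141212306-141212605, held 1 TATA box at -44.

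Pdha2: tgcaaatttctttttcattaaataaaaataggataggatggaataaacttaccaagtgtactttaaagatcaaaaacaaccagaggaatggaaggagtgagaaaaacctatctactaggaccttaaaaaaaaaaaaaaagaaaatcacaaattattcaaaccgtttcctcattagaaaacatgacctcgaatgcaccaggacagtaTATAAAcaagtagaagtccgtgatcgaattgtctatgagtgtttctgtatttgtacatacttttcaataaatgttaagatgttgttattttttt

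No motif occurred in all 4 germ cell windows. A CRE half-site was found in *Ldhc* and *Gapdhs*, and these letters were not in the windows of *Pgk2* and *Pdha2*. Of the somatic partners, *Ldha* and *Pdha1* held 1 CRE half-site each and *Ldhb* held 1 CCAAT box. The *Gapdh* window held none of these motifs. Its start lies 694 bases from that of the GENCODE transcript used here, so it may not cover the promoter of that transcript. A match is a description of letters and not of a bound site.

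In adult WT testis the germ cell isoform was the main transcript of each enzyme, and in the samples labelled knockout the somatic form was. The sum of the 4 germ cell isoforms was 5989 to 6262 FPKM in WT and 0.81 to 234.5 FPKM in the samples labelled knockout. The sum of the 5 somatic partners was 1061 to 1151 FPKM in WT and 1827 to 3017 FPKM in the samples labelled knockout. The groups did not overlap for any of the 9 genes, 5 of them lower and 4 higher, where 87.4% of all 15919 genes tested did not overlap. The study called a gene changed when its log2 fold change exceeded 1 in size with an adjusted p below 0.001, and 5 of the 9 genes passed both thresholds, compared with 46.7% of all genes tested. *Pgk1*, *Ldhb* and *Pdha1* rose and *Ldha* and *Gapdhs* fell, all by edgeR's quasi-likelihood test with Benjamini-Hochberg adjustment. With the sample labelled knockout replicate 1 left out, all 9 passed, compared with 64.7% of all genes, and with any other adult sample left out 3 passed, namely *Pgk1*, *Ldha* and *Pdha1*. The share of all genes was then 19.7%, 16.9% and 17.2% without WT replicates 1, 2 and 3, and 21.3% and 29.4% without knockout replicates 2 and 3. DESeq2 called all 9, with 64.4% of all genes, and all 9 had an adjusted p under 0.05 in edgeR, as did 81.5% of all genes.

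**Figure D1:**
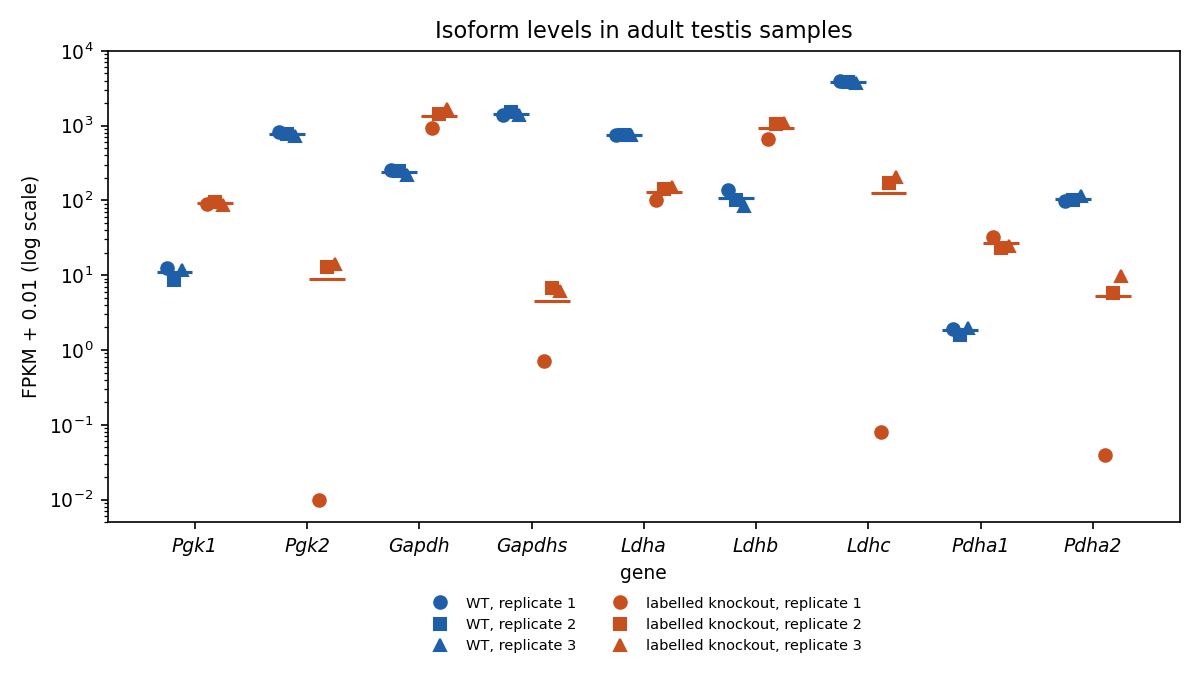
FPKM + 0.01 on a log axis for the 9 genes in the 3 adult WT samples (blue) and the 3 samples labelled knockout (orange). Each marker is a sample, its shape gives the replicate number and the bar is the group mean. Pgk2, Gapdhs, Ldhc and Pdha2 are high in WT, and the lowest point of each is replicate 1 of the samples labelled knockout.

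The changes rest on how samples are scaled. FPKM divides by all fragments, and the spermatid markers alone summed to 124310 to 192900 FPKM in WT and to 3.97 to 106.5 FPKM in the samples labelled knockout. The fits used TMM factors (trimmed mean of M-values), which were 0.71 to 0.761 in WT and 1.27 to 1.42 in the samples labelled knockout. Over all genes tested, the log2 fold change had a median of 0.01 with TMM and of 0.87 with total counts. A ratio of FPKM between groups is therefore larger than the fold change for a gene that rose. Ratios between genes within a sample depend on it only through the value added to FPKM, which matters where a gene is at or near 0.

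*Gapdhs*, the GAPDH of the sperm tail, was at 1378, 1525 and 1405 FPKM in WT and at 0.71, 6.67 and 6.23 FPKM in the samples labelled knockout. Every sample labelled knockout lay below every WT sample, and the WT mean was 317 times that of the samples labelled knockout. *Gapdhs* fell by 9.06 on the log2 scale (SE 0.94, adjusted p = 0.000225). This call was lost when any adult sample other than knockout replicate 1 was left out, with an adjusted p of up to 0.00214, while the log2 fold change stayed between -9.44 and -8.44 over all 6 samples left out in turn. *Gapdh*, the enzyme of most cells, was at 258, 245 and 222 FPKM in WT and at 942, 1430 and 1661 FPKM in the samples labelled knockout. Its groups did not overlap, and its log2 fold change of 1.64 (SE 0.25, adjusted p = 0.00115) missed the threshold on p. Without knockout replicate 1 it was 1.95 (adjusted p = 9.6e-07). Counts of *Gapdh* and of *Pdha1* were not whole in most samples. RSEM divides reads that match several genes, so the values of these 2 genes are less certain than those of the other 7.

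*Pgk2* was at 812, 780 and 724 FPKM in WT and at 0, 12.9 and 13.9 FPKM in the samples labelled knockout. In knockout replicate 1 it had 0 of 15911854 counts, which allows up to 0.189 CPM (counts scaled for depth) and covers counting error only. The other 2 samples of the group held between 279 and 288 counts. The log2 fold change of *Pgk2* was -7.33 (SE 1.77, adjusted p = 0.00852) and did not pass, and without knockout replicate 1 it was -6.61 (SE 0.17, adjusted p = 1.43e-08). *Pgk1* was at 12.3, 8.53 and 11.9 FPKM in WT and at 89.95, 95.7 and 87.0 FPKM in the samples labelled knockout. It rose by 2.21 on the log2 scale (SE 0.16, adjusted p = 6.82e-05), and the 3 samples labelled knockout, replicate 1 included, were close to each other.

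*Ldhc* had the highest level of the 9 genes in adult WT testis, at 3908, 3857 and 3746 FPKM. In the samples labelled knockout it was at 0.07, 171 and 205 FPKM, and the lowest of these values stood for 1 count. The groups were apart, and the log2 fold change of -5.86 (SE 2.01, adjusted p = 0.0332) did not pass. Without knockout replicate 1 it was -5.14 (SE 0.17, adjusted p = 2.46e-08). *Ldha*, whose subunit favours the making of lactate, was at 741, 759 and 741 FPKM in WT and at 102, 141 and 149 FPKM in the samples labelled knockout. *Ldha* fell by 3.53 on the log2 scale, the only somatic partner that did (SE 0.24, adjusted p = 5.44e-05), and it passed with each adult sample left out in turn. *Ldhb*, the LDH subunit of heart, was at 139, 100 and 84.9 FPKM in WT and at 660, 1058 and 1096 FPKM in the samples labelled knockout. It rose by 2.25 on the log2 scale (SE 0.29, adjusted p = 0.00052), a call that was lost when any adult sample other than knockout replicate 1 was left out (adjusted p up to 0.00438).

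*Pdha2* was at 97.3, 99.8 and 114 FPKM in WT and at 0.03, 5.81 and 9.72 FPKM in the samples labelled knockout. The lowest value again stood for 1 count, in knockout replicate 1. The log2 fold change of *Pdha2* was -5.22 (SE 1.39, adjusted p = 0.0127), and -4.51 (SE 0.21, adjusted p = 1.19e-07) without that sample. *Pdha1* had the lowest level of the 9 genes in WT, at 1.89, 1.57 and 1.98 FPKM, and was at 32.5, 23.0 and 24.4 FPKM in the samples labelled knockout. *Pdha1* rose by 3.03 on the log2 scale (SE 0.21, adjusted p = 6.23e-05), the largest of the rises among the 9 genes. Unlike the germ cell isoforms, *Pdha1* was highest in knockout replicate 1.

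Levels per length can be ordered within a group. In WT the order of mean FPKM was *Ldhc* (3837 ± 83.0, SD, n = 3), *Gapdhs* (1436 ± 78.0), *Pgk2* (771.9 ± 44.1), *Ldha* (746.8 ± 10.8), *Gapdh* (241.5 ± 18.2), *Ldhb* (107.8 ± 27.7), *Pdha2* (103.7 ± 9.07), *Pgk1* (10.9 ± 2.07) and *Pdha1* (1.81 ± 0.215). The ranges of *Pgk2* and *Ldha* overlapped, as did those of *Ldhb* and *Pdha2*, and the other neighbours in this order were apart. In the samples labelled knockout the order was *Gapdh* (1344 ± 367), *Ldhb* (938 ± 242), *Ldha* (130.8 ± 25), *Ldhc* (125.3 ± 110), *Pgk1* (90.9 ± 4.40), *Pdha1* (26.6 ± 5.15), *Pgk2* (8.95 ± 7.77), *Pdha2* (5.19 ± 4.87) and *Gapdhs* (4.54 ± 3.32). Here *Gapdh* overlapped with *Ldhb*, *Ldha* with *Ldhc*, *Ldhc* with *Pgk1*, *Pgk2* with *Pdha2* and *Pdha2* with *Gapdhs*.

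The share of each isoform in the summed FPKM of its enzyme needs no scaling between samples and no added value. *Pgk2* made up 98.5%, 98.9% and 98.4% of PGK in WT and 0%, 11.9% and 13.8% in the samples labelled knockout. *Gapdhs* made up 84.3%, 86.1% and 86.4% of GAPDH in WT and 0.0753%, 0.464% and 0.374% in the samples labelled knockout. *Pdha2* made up 98.1%, 98.5% and 98.3% of PDHA in WT and 0.0921%, 20.2% and 28.5% in the samples labelled knockout. In each of these pairs the main form was the germ cell one in every WT sample and the somatic one in every sample labelled knockout. LDH was summed over *Ldha*, *Ldhb* and *Ldhc*. *Ldhal6b*, a further LDH-like gene that is not in this sum, was at 750, 739 and 754 FPKM in WT, about the level of *Ldha*, and at 0.21, 43.3 and 51.0 FPKM in the samples labelled knockout (log2 fold change -5.47, SE 1.59, adjusted p = 0.0177), so the LDH shares and sums hold for these 3 genes alone. *Ldhc* took 81.6%, 81.8% and 81.9% of it in WT and 0.00918%, 12.5% and 14.1% in the samples labelled knockout. The share of *Ldhb* was 2.89%, 2.12% and 1.86% in WT and 86.6%, 77.2% and 75.6% in the samples labelled knockout. The place of *Ldhc* as the main form was thus held by *Ldhb* and not by *Ldha*, whose share was 15.5% to 16.2% in WT and 10.3% to 13.4% in the samples labelled knockout.

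**Figure D2:**
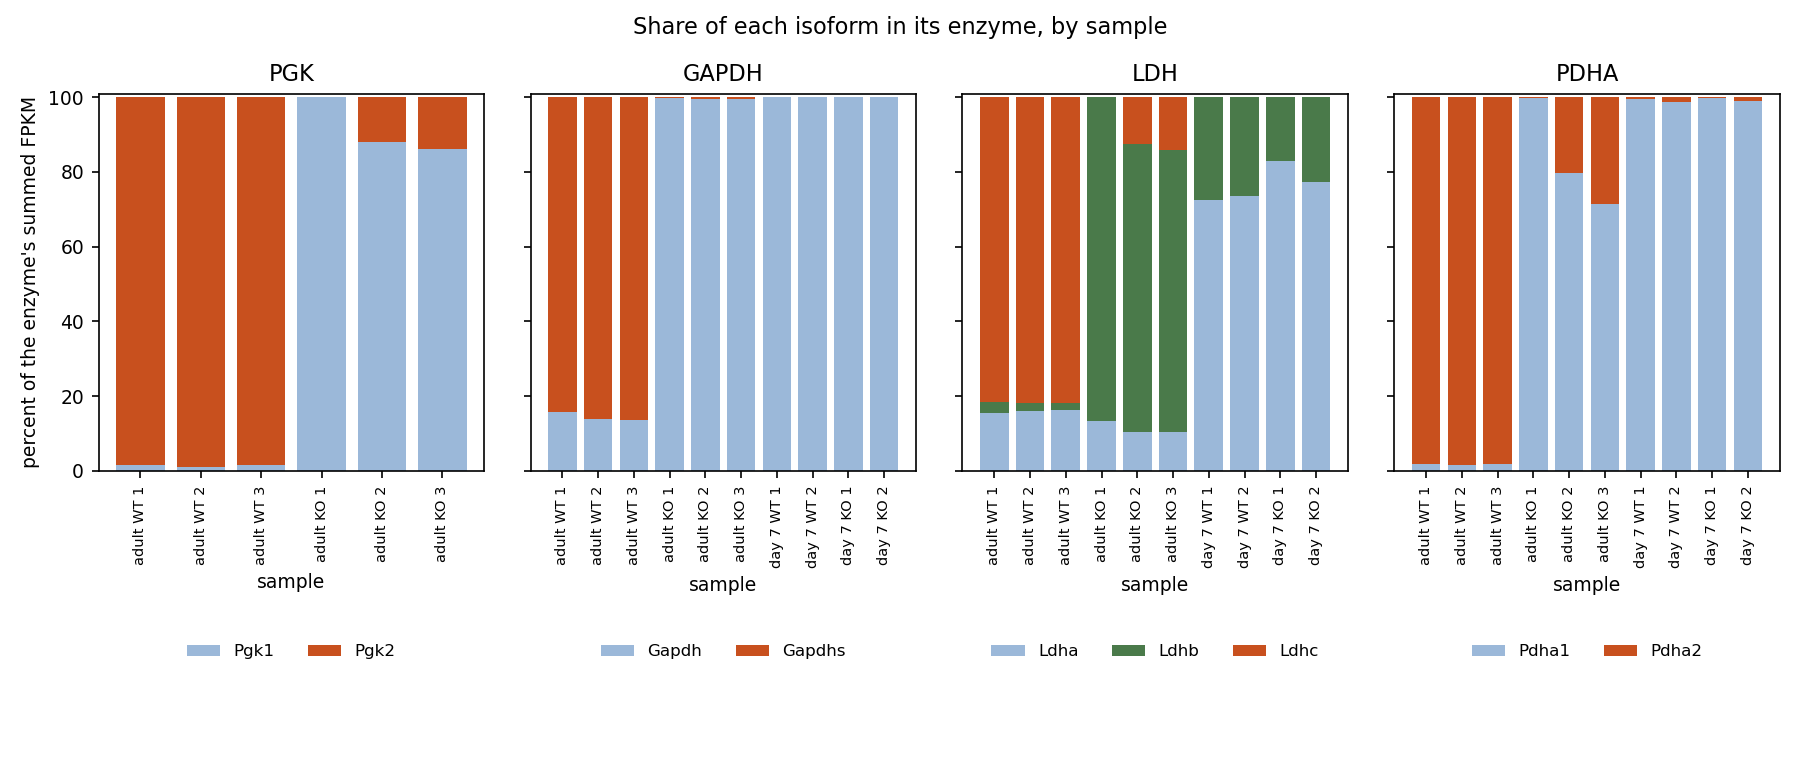
Percent of each enzyme's summed FPKM taken by each isoform in every sample, as stacked bars, for PGK, GAPDH, LDH and PDHA. Day 7 samples are left out for PGK, where Pgk2 was not analysed. Germ cell isoforms (orange) fill 81.6% to 98.9% of the bars of adult WT samples and no more than 28.5% of any other bar, and Ldhb (green) fills most of LDH in the adult samples labelled knockout.

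The summed FPKM of PGK, LDH and PDHA was lower in every sample labelled knockout than in every WT sample. The sum for PGK was 782.8 ± 44.0 FPKM (SD, n = 3) in WT and 99.9 ± 9.38 in the samples labelled knockout, that for LDH 4692 ± 110 and 1194 ± 376, and that for PDHA 105.5 ± 9.21 and 31.8 ± 2.70. For GAPDH the sums were 1677 ± 80.4 and 1349 ± 370 FPKM, and the ranges of the groups, 1626 to 1770 and 942.7 to 1667, overlapped. These sums were not rescaled by the TMM factors, which were 0.71 to 0.761 in WT and 1.27 to 1.42 in the samples labelled knockout. The overlap for GAPDH therefore holds for FPKM alone. In bulk samples, fewer cells of a type and less RNA per cell cannot be told apart.

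Log2 ratios of germ cell isoform to somatic partner, with 0.1 added to each FPKM value, were above 0 in every WT sample. For *Pgk2* to *Pgk1* they were 6.03, 6.50 and 5.92 in WT and -9.81, -2.88 and -2.63 in the samples labelled knockout, a difference of means of -11.26. As knockout replicate 1 had no or few counts of the germ cell isoforms, the added value sets part of this size, and the difference was -9.99 with 1 added and -12.38 with 0.01 added. For *Gapdhs* to *Gapdh* they were 2.42, 2.63 and 2.66 against -10.18, -7.72 and -8.04, a difference of -11.22. For *Pdha2* to *Pdha1* they were 5.61, 5.90 and 5.78 against -7.97, -1.97 and -1.32, a difference of -9.52, or -7.91 with 1 added and -10.16 with 0.01 added. The *Ldhc* to *Ldhb* ratio was 4.82, 5.27 and 5.46 against -11.92, -2.63 and -2.42, a difference of -10.84. The *Ldhc* to *Ldha* ratio was 2.40, 2.34 and 2.34 against -9.24, 0.28 and 0.45, a difference of -5.19. It was the pair in which the partner fell too, and in knockout replicates 2 and 3 *Ldhc* was still above *Ldha*. The *Ldhb* to *Ldha* ratio was -2.42, -2.92 and -3.12 in WT and 2.69, 2.91 and 2.87 in the samples labelled knockout, a difference of 5.65.

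In all 6 of these ratios the groups were apart, with an exact two-sided permutation p of 0.1, the smallest that 3 against 3 allows, and 0.129 after Benjamini-Hochberg adjustment over the 9 ratios of the table. Thus none could pass 0.05 in that test. Fitted with limma across all genes, after the level of the partner was subtracted, the adjusted p was 0.00115 for *Pgk2* to *Pgk1*, 3.89e-06 for *Gapdhs* to *Gapdh*, 0.00041 for *Ldhc* to *Ldhb*, 0.00211 for *Pdha2* to *Pdha1* and 2.17e-06 for *Ldhb* to *Ldha*. For *Ldhc* to *Ldha* it was 0.0933. That fit shares variance between genes, so its p-values do not measure the spread of each ratio alone. For *Ldhc* to *Ldhb* the SE of that fit was 1.96, where the ratio had an SD of 5.43 in the samples labelled knockout (n = 3). Without knockout replicate 1, which gave the lowest germ cell ratio in each pair, the differences were -8.90 for *Pgk2* to *Pgk1*, -10.45 for *Gapdhs* to *Gapdh*, -1.99 for *Ldhc* to *Ldha*, -7.71 for *Ldhc* to *Ldhb*, -7.41 for *Pdha2* to *Pdha1* and 5.71 for *Ldhb* to *Ldha*.

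**Figure D3:**
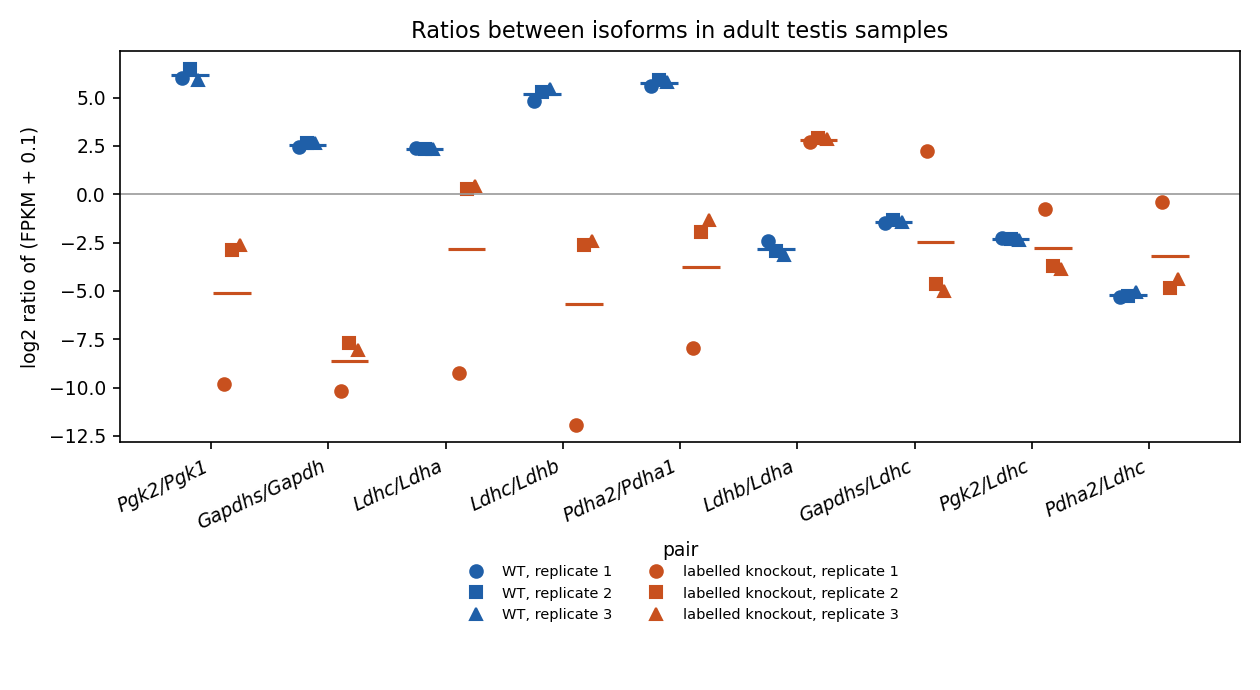
Log2 ratio of FPKM + 0.1 for 9 pairs of isoforms in the adult samples, WT in blue and samples labelled knockout in orange. Each marker is a sample, its shape gives the replicate number and the bar is the group mean. In the first 6 pairs the groups do not overlap, and in the last 3, germ cell isoforms against Ldhc, replicate 1 of the samples labelled knockout lies above the other 2.

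The proportions of the germ cell isoforms to each other differed between the samples labelled knockout. In WT, *Ldhc* was 2.84, 2.53 and 2.67 times the level of *Gapdhs*, and in knockout replicates 2 and 3 it was 25.7 and 32.8 times. Against *Pgk2*, *Ldhc* was 4.82, 4.95 and 5.17 times higher in WT and 13.3 and 14.7 times higher in knockout replicates 2 and 3. Against *Pdha2* it was 40.2, 38.7 and 32.8 times higher in WT and 29.5 and 21.1 times higher in those 2 samples. In knockout replicate 1 these 4 genes had 0, 18, 1 and 1 counts for *Pgk2*, *Gapdhs*, *Ldhc* and *Pdha2*, too few to order *Pgk2*, *Ldhc* and *Pdha2*. With all 3 samples, the log2 differences were -1.06 for *Gapdhs* to *Ldhc* (exact permutation p = 0.9), -0.47 for *Pgk2* to *Ldhc* (exact permutation p = 0.9) and 2.0 for *Pdha2* to *Ldhc* (exact permutation p = 0.1, adjusted p = 0.129). In the last of these the groups were apart, at the smallest p the test allows, and in the first 2 they overlapped. The limma fits gave adjusted p-values of 0.785, 0.904 and 0.603. Those fits subtracted the level of *Ldhc* from every gene and shared variance between genes. The spread of *Ldhc* in the samples labelled knockout thus entered each SE (3.56, 3.54 and 3.54). These p-values therefore do not measure the spread of each ratio alone. Without knockout replicate 1 the differences were -3.42 for *Gapdhs* to *Ldhc*, -1.48 for *Pgk2* to *Ldhc* and 0.59 for *Pdha2* to *Ldhc*, so this sample sets the size of each of these values.

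Marker genes of other cells moved with these levels. Their counts stand against 23.0% of all genes past both thresholds as higher and 23.7% as lower, and against 54.9% higher and 32.4% lower without overlap. All 12 spermatid markers were lower in every sample labelled knockout than in every WT sample, and 7 of them passed both thresholds. Of 10 spermatocyte markers 9 did not overlap and were lower, with sums of 742.7 to 797.9 FPKM in WT and of 3.6, 147.7 and 260.1 FPKM in knockout replicates 1, 2 and 3. None of the 10 passed. In knockout replicate 1, *Prm1*, *Acrv1* and *Catsper1* of the spermatid list and *Spo11* of the spermatocyte list were at 0. All 7 Leydig cell markers rose, with sums of 4019 to 5618 FPKM in WT and of 63494 to 88130 FPKM in the samples labelled knockout, as did all 7 macrophage markers (69.3 to 80.1 and 1777 to 2830 FPKM) and all 6 stromal fibroblast markers (40.3 to 53.7 and 1265 to 3342 FPKM). Of 12 Sertoli cell markers 1 rose, 1 fell and 10 did not pass, with 4 higher and 1 lower without overlap, and their sum was 358.4 to 462 FPKM in WT and 681, 2923 and 3552 FPKM in knockout replicates 1, 2 and 3. *Sox9*, a defining gene of Sertoli cells, was at 2.34, 1.37 and 1.77 FPKM in WT and at 1.2, 9.86 and 12.7 FPKM in the samples labelled knockout. Of 6 myoid cell markers 3 rose and 1 fell, with 5 higher and 1 lower without overlap, and their sums were 293.2 to 366.3 FPKM in WT and 191.3 to 395.5 FPKM in the samples labelled knockout. Of 10 spermatogonium markers 3 rose and 7 did not pass, of which 4 were lower without overlap, and their sums were 266.9 to 299.1 and 60.3 to 456.3 FPKM. Of 6 endothelial markers 2 rose, with all 6 higher without overlap (sums of 6.52 to 7.98 and 32.9 to 50.9 FPKM). None of 5 red blood cell markers passed, with 4 higher and 1 lower without overlap (sums of 89.0 to 128 and 673.3 to 3176 FPKM). The part of these cells in the isoform levels was not tested.

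Among the other enzymes of the pathway, genes for the same step lay on both sides of 0. Of 25 other glycolysis genes 23 were tested, of which 3 rose, 9 fell and 11 did not pass, with a median log2 fold change of -1.14. Of 16 other genes of pyruvate and lactate use, all tested, 7 rose, 3 fell and 6 did not pass, with a median of 0.94. For all genes tested the median was 0.01, with 23.0% past both thresholds as higher and 23.7% as lower. *Pgam1*, a phosphoglycerate mutase of most tissues, was at 32.4, 24.8 and 25.8 FPKM in WT and at 291, 310 and 339 FPKM in the samples labelled knockout, and rose by 2.65 on the log2 scale (SE 0.16, adjusted p = 4.49e-05). *Pgam2*, the muscle form of the mutase, which germ cells also use, was at 1770, 1989 and 1686 FPKM in WT and at 1.26, 38.3 and 48.4 FPKM in the samples labelled knockout, a log2 fold change of -6.85 (SE 1.31, adjusted p = 0.00305) that did not pass. *Pgk1* and *Pgk2*, which act at the step before, lay on the same sides.

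The largest rises among the pathway genes were those of *Aldoc*, *Pdk4*, *Pdp2*, *Ldhd* and *Pgam1*. *Aldoc*, an aldolase, was at 1.24 to 2.04 FPKM in WT and 34.2 to 52.3 FPKM in the samples labelled knockout (log2 fold change 3.86, SE 0.29, adjusted p = 7.65e-05). *Ldhd*, which acts on D-lactate, was at 1.76 to 2.17 and 24.7 to 31.3 FPKM (3.01, SE 0.14, adjusted p = 2.79e-05). *Pdk4*, a kinase that inactivates pyruvate dehydrogenase, and *Pdp2*, a phosphatase that restores its activity, rose by 3.16 and 3.15 on the log2 scale. *Pdp2* was at 0.28 to 0.32 FPKM in WT and at 4.59 to 5.03 FPKM in the samples labelled knockout. It thus reached the filter of 0.5 FPKM only through the group where it was high. With no filter its log2 fold change was 3.19 (adjusted p = 3.16e-05 by edgeR's quasi-likelihood test). *Pdk4* was at 0.59, 0.23 and 0.65 FPKM in WT and at 5.83 to 9.97 FPKM in the samples labelled knockout. It too reached 0.5 FPKM in 3 samples only with the help of the latter group. With no filter the log2 fold change of *Pdk4* was 3.20 (adjusted p = 0.000616 by the same test). The call of *Pdk4* (adjusted p = 0.000708) was lost with median-ratio scaling (adjusted p = 0.00103) and when any adult sample other than knockout replicate 1 was left out (0.00133 to 0.00441).

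Among the largest falls were those of *Aldoart1*, *Eno4*, *Hk1* and *Mpc2*. *Hk1*, whose germ cell transcripts come from the same gene as the somatic hexokinase, was at 374, 386 and 442 FPKM in WT and at 21.5, 17.5 and 17.1 FPKM in the samples labelled knockout, and fell by 5.25 on the log2 scale (SE 0.27, adjusted p = 3.18e-05). *Aldoart1*, a testis aldolase without introns, was at 47.4 to 52.6 FPKM in WT and at 0, 0.89 and 1.26 FPKM in the samples labelled knockout (-7.00, SE 0.94, adjusted p = 0.000669). *Eno4*, a sperm enolase, fell by 5.37 on the log2 scale (adjusted p = 0.000392). Both calls were lost when any adult sample other than knockout replicate 1 was left out, with an adjusted p of 0.0038 to 0.00587 for *Aldoart1* and of 0.00136 to 0.00358 for *Eno4*. That of *Aldoart1* was also lost with total counts (adjusted p = 0.00112) and with limma on FPKM + 0.1 (adjusted p = 0.0012). *Mpc2*, a subunit of the mitochondrial pyruvate carrier, fell by 3.53, while its partner *Mpc1* rose by 1.35.

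**Figure D4:**
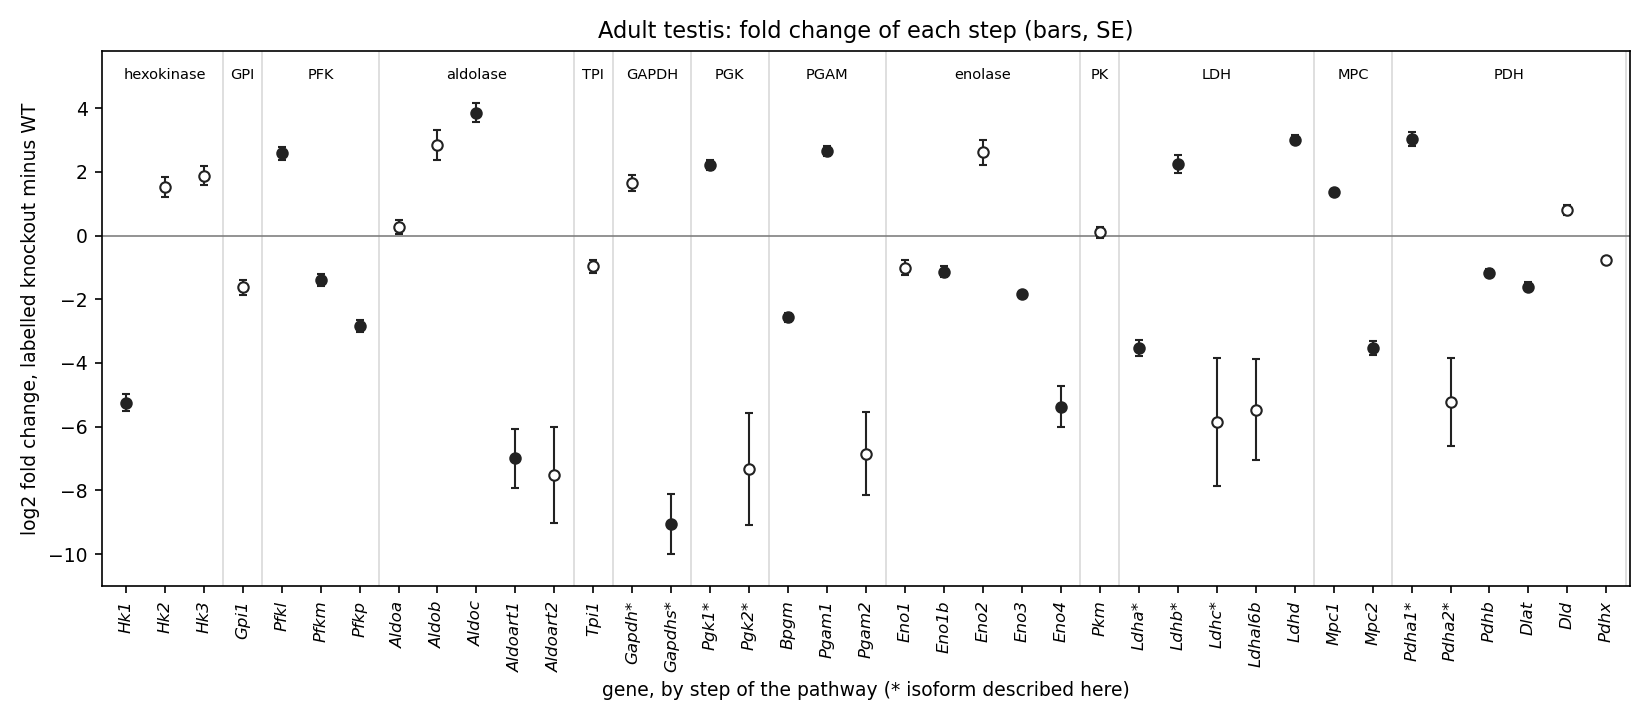
Log2 fold change of samples labelled knockout against WT in adult testis for tested genes of glycolysis, LDH, pyruvate carrier and pyruvate dehydrogenase, by step, with its SE. Filled circles are genes past both thresholds and asterisks mark the 9 isoforms. Most steps hold a gene above 0 beside a gene below 0, as Pgam1 at 2.65 and Pgam2 at -6.85.

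Among all tested genes outside the 9, *Acrv1*, *Ms4a20*, *Ankrd60*, *Tsga8* and *Crisp2* had a pattern over the 6 adult samples nearest to the mean of the 4 germ cell isoforms. Their root mean square distance to it was 0.11 to 0.18 on the log2 scale, where that of *Pgk2* was 0.35, of *Pdha2* 0.98, of *Ldhc* 1.20 and of *Gapdhs* 1.31. *Acrv1*, for instance, was at 339, 407 and 398 FPKM in WT and at 0, 7.91 and 8.4 FPKM in the samples labelled knockout. Nearest to the mean of *Pgk1*, *Gapdh*, *Ldha* and *Pdha1* were *Hspa14*, *Tmem234*, *Sdhd*, *Pum2* and *Cbx3*, at 0.04 to 0.05. The 4 somatic genes themselves lay at 0.42 for *Gapdh*, 0.70 for *Pgk1*, 1.07 for *Pdha1* and 2.12 for *Ldha*, whose direction was opposite to that of the other 3.

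In the Sertoli cells of day 7 the somatic partners were the transcripts of these enzymes in both genotypes. *Gapdhs*, *Ldhc* and *Pdha2* were all at 0.55 FPKM or less and rested on 0 to 20 counts per sample. None of the 3 passed the filter of 0.5 FPKM in 2 samples, so they were not tested. The 5 somatic partners were tested, and none passed both thresholds by edgeR's quasi-likelihood test, where 0.00% of all 12880 genes tested did (15.5% at an unadjusted p under 0.05, and 0.978% by DESeq2, which called no isoform). The groups did not overlap for any of the 5, with 4 lower and 1 higher in Amh-Rnf20-/-. Among all genes tested 50.8% did not overlap, 31.1% lower and 19.7% higher.

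**Figure D5:**
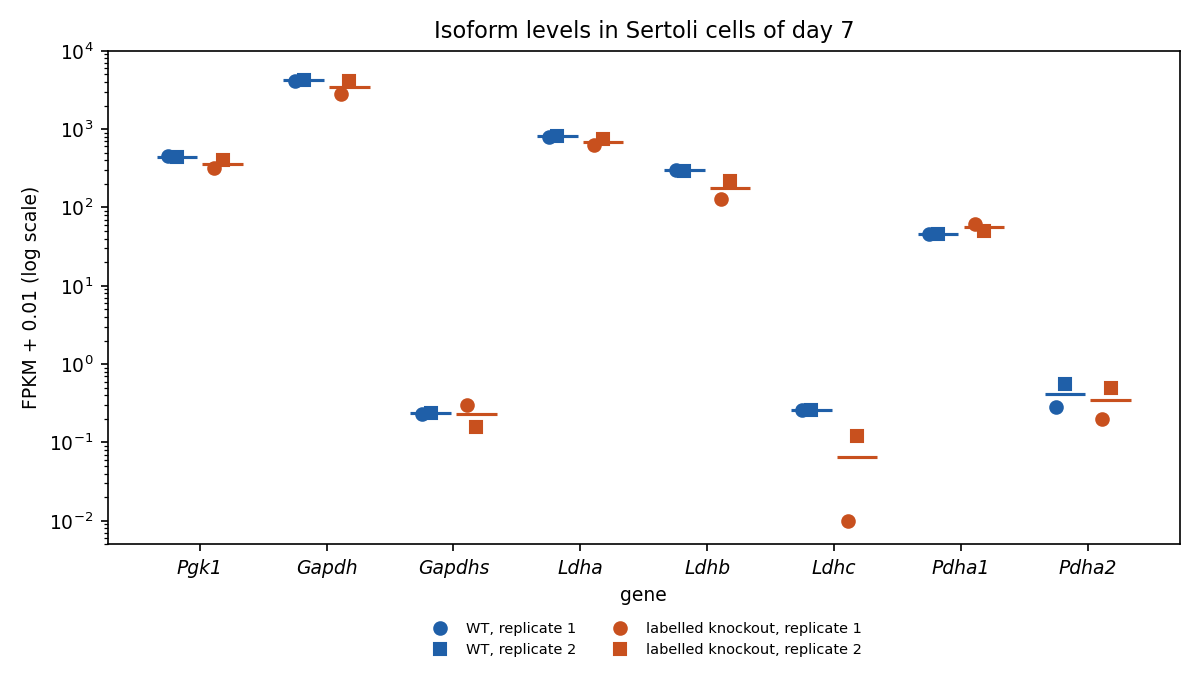
FPKM + 0.01 on a log axis for 8 isoforms in Sertoli cells of day 7, 2 Rnf20 Flox/Flox controls (blue, WT in the legend) and 2 Amh-Rnf20-/- (orange, labelled knockout in the legend). Each marker is a sample, its shape gives the replicate number and the bar is the group mean. Gapdhs, Ldhc and Pdha2 stay at or below 0.55 FPKM, and the 5 somatic genes lie between 45.2 and 4265 FPKM.

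*Gapdh* was the highest of the isoforms at day 7, at 4151 and 4265 FPKM in controls and at 2803 and 4069 FPKM in Amh-Rnf20-/- (log2 fold change -0.26, SE 0.18, adjusted p = 0.539). *Pgk1* was at 457 and 435 FPKM and at 323 and 400 FPKM (-0.27, SE 0.12, adjusted p = 0.387). *Ldha* was at 794 and 822 FPKM and at 627 and 745 FPKM (-0.20, SE 0.10, adjusted p = 0.433). In these 3 genes Amh-Rnf20-/- replicate 1 was the lowest sample and replicate 2 lay between it and the controls. Without Amh-Rnf20-/- replicate 1 the log2 fold changes of *Gapdh*, *Pgk1* and *Ldha* were -0.03, -0.12 and -0.09, and without replicate 2 they were -0.53, -0.42 and -0.32. *Ldhb* was at 299 and 296 FPKM in controls and at 129 and 220 FPKM in Amh-Rnf20-/- (-0.73, SE 0.26, adjusted p = 0.303). *Pdha1* was at 45.2 and 45.7 FPKM and at 61.4 and 50.8 FPKM (0.34, SE 0.12, adjusted p = 0.303), the only one of the 5 that was higher, with 0.19 without replicate 1 and 0.48 without replicate 2.

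A single sample decides how *Ldhb* reads at day 7. Without Amh-Rnf20-/- replicate 2 its log2 fold change was -1.15 and passed both thresholds (adjusted p = 6.27e-06), where 5.05% of all genes did, and the lone sample is then assumed to vary like the controls. Without Amh-Rnf20-/- replicate 1 it was -0.41 and did not, where 0.474% of all genes did. Between the pair of Amh-Rnf20-/- samples the chi-square per degree of freedom was 34.3, and between the controls it was 2.65.

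The order of mean FPKM at day 7 was the same for the 5 somatic genes in both groups. In controls it was *Gapdh* (4208 ± 80.5, SD, n = 2), *Ldha* (807.9 ± 19.7), *Pgk1* (446.2 ± 15.5), *Ldhb* (297.7 ± 2.28) and *Pdha1* (45.4 ± 0.339). In Amh-Rnf20-/- it was *Gapdh* (3436 ± 895), *Ldha* (685.9 ± 83.9), *Pgk1* (361.5 ± 54.9), *Ldhb* (174.6 ± 63.9) and *Pdha1* (56.1 ± 7.51). Neighbours in either order did not overlap. The 3 germ cell isoforms were at or below 0.41 FPKM on average in either group.

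*Ldha* held 72.6% and 73.5% of LDH in controls and 82.9% and 77.2% in Amh-Rnf20-/-, and *Ldhb* held nearly all of the rest. The log2 ratio of *Ldhb* to *Ldha* was -1.41 and -1.47 in controls and -2.28 and -1.76 in Amh-Rnf20-/-, a difference of -0.58 (exact permutation p = 0.333, the smallest that 2 against 2 allows, and 0.467 after adjustment over the 7 ratios of the table). It was -0.32 without Amh-Rnf20-/- replicate 1 and -0.84 without replicate 2. Limma gave an adjusted p of 0.268. *Ldhc* was at 0.25 FPKM in both controls and at 0 and 0.11 FPKM in Amh-Rnf20-/-, from 4, 4, 0 and 2 counts, and 0 of 17477268 counts allows up to 0.172 CPM. *Gapdhs*, at 0.22, 0.23, 0.29 and 0.15 FPKM, and *Pdha2*, at 0.27, 0.55, 0.19 and 0.49 FPKM, overlapped between the groups. Their log2 ratios to *Gapdh* and *Pdha1* differed by 0.26 (exact permutation p = 1) and -0.54 (exact permutation p = 0.667), which at these counts was not detectable as a difference. The ratio of *Ldhc* to *Ldha* was -11.15 and -11.20 in controls and -12.61 and -11.79 in Amh-Rnf20-/- (difference -1.03), and that of *Ldhc* to *Ldhb* was -9.74 and -9.73 against -10.34 and -10.03 (difference -0.45). In both the groups were apart, with an exact permutation p of 0.333 and 0.467 after adjustment, on the same 0 to 4 counts of *Ldhc*.

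Markers of other cells differed between the day 7 groups too, without a call. The sum of the Sertoli cell markers was 1428 to 1527 FPKM in controls and 1064 to 1147 FPKM in Amh-Rnf20-/-. *Sox9* was at 41.8 and 39.4 FPKM in controls and at 10.2 and 25.7 FPKM in Amh-Rnf20-/-, lowest in the sample where *Gapdh*, *Pgk1*, *Ldha* and *Ldhb* were lowest. Myoid cell markers, at 1911 to 2030 FPKM, stood above the Sertoli cell markers in the controls already and were at 3553 to 3604 FPKM in Amh-Rnf20-/-, and stromal fibroblast markers were at 1411 to 1453 and 2244 to 2714 FPKM. The spermatid marker sum, over the 6 of 12 markers with a row, was 0.63 to 1.43 FPKM over all 4 samples. *Tnp1*, *Akap4*, *Acr* or *Tssk2* was at 0 in some samples. The spermatocyte sum was 16.6 and 20.9 FPKM in controls and 11.3 and 13.4 FPKM in Amh-Rnf20-/-. All 6 tested spermatocyte markers of 10 were lower without overlap, where 31.1% of all genes tested were lower and 19.7% higher. Of 10 spermatogonium markers 9 were lower without overlap, and of 11 tested Sertoli cell markers 7 were lower and 1 higher. All 6 myoid and all 6 stromal fibroblast markers were higher without overlap, as were 3 of 5 tested Leydig cell and 2 of 4 tested macrophage markers. Of 4 tested endothelial markers 1 was higher and 2 were lower. Leydig cell markers summed to 156.1 and 161.5 FPKM in controls and to 302.3 and 213.8 FPKM in Amh-Rnf20-/-, endothelial markers to 36.4 and 34.7 against 49.7 and 37.3 FPKM, and macrophage markers to 28 and 33.0 against 55 and 31.6 FPKM. Red blood cell markers were at 0.27 FPKM or less in sum. The spermatogonium sum was 218.2 to 225.1 FPKM in controls and 154.1 to 155.3 FPKM in Amh-Rnf20-/-. Their part in the isoform levels was not tested.

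None of the 32 other pathway genes tested at day 7 passed, with a median log2 fold change of -0.09 where that of all genes was 0.00. The smallest p-values among those lower in Amh-Rnf20-/- were those of *Hk2*, *Pdpr* and *Ldhd*. *Hk2*, a hexokinase, was at 75.7 and 78.6 FPKM in controls and at 42.0 and 54.3 FPKM in Amh-Rnf20-/- (log2 fold change -0.62, adjusted p = 0.188). The fold change of *Pdpr* was -0.68 (adjusted p = 0.196) and that of *Ldhd* -1.39 (adjusted p = 0.279). Like *Ldhb*, *Ldhd* rested on 1 sample, with -2.19 past both thresholds without Amh-Rnf20-/- replicate 2 (adjusted p = 0.000194) and -0.87 without replicate 1. Among those higher they were *Eno3* (0.38, adjusted p = 0.403), *Eno2* (0.57, adjusted p = 0.434) and *Pgam2* (1.60, adjusted p = 0.458). *Pgam2* rested on 1 to 20 counts per sample, and its value was 3.79 without control replicate 1 and 0.76 without control replicate 2.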

How the data were processed

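Estimated counts, FPKM and TPM per gene were deposited by the authors in 2 tables, 1 for adult testis and 1 for Sertoli cells of day 7. Per the labels and the study's methods, the authors enriched RNA with oligo(dT), sequenced it on the BGISEQ platform, aligned reads with HISAT (genome GRCm38.p6) and with Bowtie2 (reference genes), and computed FPKM with RSEM. Tool versions and strand handling are not given in the sources used here. The deposited estimated counts are not normalized, the deposited FPKM values are scaled for length and depth, and the deposited TPM values served as an alternative for the ratios. The adult table held 20 columns without values, which were not used.

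Groups came from the labels, and the tables were fitted separately. Counts were rounded to whole numbers (values ending in 0.5 to the even number), scaled by TMM and tested with edgeR's quasi-likelihood test, with Benjamini-Hochberg adjustment over the genes that reached 0.5 FPKM in 3 adult or 2 day 7 samples, 15919 and 12880 genes. Each SE was obtained from the fold change and its F statistic. Ratios used log2 of FPKM with 0.1 added and an exact two-sided permutation test. The edgeR fit was tried on simulated counts in which few genes changed, unlike in the adult samples. The permutation test was checked on small examples with a known answer. The limma fits of the ratios were not tried on simulated data. Depth was 15431912 to 17705347 counts per sample, at which the spread between samples limits most comparisons, and the germ cell isoforms of day 7 are limited by counting. Alternatives covered scaling, filter, tool, unit, pseudocount, call rule, replicate number as a block and each sample left out.

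The members, pathway lists and marker lists were chosen with earlier results of these data known. Named pathway genes are the 5 largest rises and falls past both thresholds without overlap, or the 3 smallest p-values of each direction where none passed. A gene that this rule named is not reported here. *Pgam2*, *Mpc1* and *Ldhal6b*, and the marker genes given by name, were added after their values were seen. Alike genes had the smallest root mean square distance between centred log2 values. For genes with several RefSeq promoter windows the one nearest the start of the transcript with the longest coding sequence was used. Tools were R 4.3.3, edgeR 4.0.16, DESeq2 1.42.0, limma 3.58.1, Python 3.11.15, numpy 2.4.6, pandas 2.3.3, biopython 1.88 and matplotlib 3.10.9.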

Additional observations from a re-analysis of the deposited data

Results flagged for a closer look

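*Pgk1*, *Gapdh* and *Ldhb* lay on opposite sides in the 2 tables. In adult testis every sample labelled knockout was above every WT sample, with log2 fold changes of 2.21 for *Pgk1*, 1.64 for *Gapdh* and 2.25 for *Ldhb*. In the Sertoli cells of day 7 every Amh-Rnf20-/- sample was below every control, with values of -0.27, -0.26 and -0.73, which were -0.12, -0.03 and -0.41 without Amh-Rnf20-/- replicate 1. The log2 ratio of *Ldhb* to *Ldha* did the same, with a difference of 5.65 in adult testis and of -0.58 at day 7 (-0.32 without that replicate). None of these differences between the tables was tested, since the tables were made separately and differ in tissue, age and culture as well.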

How the results depend on the processing

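The adult fold changes of all 9 isoforms kept their direction under every setting tried, and the day 7 ones of the 5 somatic genes did too. Counts of calls moved more. Past both thresholds were 5 adult isoforms in the main fit, 9 with DESeq2 and 3 to 9 with 1 sample left out. Total counts and limma on FPKM + 0.1 gave 6, and limma on FPKM + 1 gave 7. Of all 15919 genes tested, 8088 passed with total counts, 8335 with limma on FPKM + 0.1 and 8804 with limma on FPKM + 1. In the main fit 7432 passed. *Gapdh* passed in all of these fits without a sample left out except the main one, and *Pgk2* with DESeq2 and with limma on FPKM + 1. At an adjusted p under 0.05 with any fold, 9 isoforms and 36 of 39 tested adult pathway genes were called, compared with 81.5% of all genes. Past both thresholds were 22 of these 39 in the main fit and 33 with DESeq2, compared with 46.7% and 64.4% of all genes. With 1 sample left out they numbered 10 to 31 (31 without knockout replicate 1), compared with 16.9% to 64.7% of all genes. At day 7, leaving out 1 sample gave 0 to 1 isoform and 0 to 1 pathway gene. With the replicate number as a block in edgeR, 0 adult isoforms, 0 adult pathway genes and 0 genes in all passed both thresholds, by which 7432 passed without it. The labels do not say whether samples of the same number share more than that number. The correlation of their deviations was 0.0169 to 0.0302 in adult samples, where each sample correlated best with its own number. At day 7 it was 0.0293, and -0.0293 for unlike numbers. With 2 samples per group these values mirror each other and cannot decide on a pairing. Whether the samples form pairs was not tested, and a call lost under the block says nothing on the size of an effect. With limma in place of the permutation test, with or without the replicate block, the adult ratios had an adjusted p under 0.05 at -11.26 for *Pgk2* to *Pgk1*, -11.22 for *Gapdhs* to *Gapdh*, -10.84 for *Ldhc* to *Ldhb*, -9.52 for *Pdha2* to *Pdha1* and 5.64 for *Ldhb* to *Ldha*. With the block, limma gave *Ldhc* to *Ldhb* an adjusted p of 2.31e-84 from 3 samples per group. The limma p-values are therefore no measure of the spread of a ratio between samples. Ratios that changed sign were those among germ cell isoforms or of low values: *Gapdhs* to *Ldhc* ranged from -3.42 to 0.21 and *Pgk2* to *Ldhc* from -1.48 to 0.07 with 1 adult sample left out, and at day 7 *Gapdhs* to *Gapdh* ranged from -0.33 to 0.85, *Pdha2* to *Pdha1* from -1.19 to 0.11, and *Ldhc* to *Ldhb*, at -0.45, was 0.57 with a pseudocount of 1. The cause was not tested. With a pseudocount of 1 and of 0.01, *Ldhc* to *Ldhb* was -9.94 and -11.20 and *Ldhc* to *Ldha* -4.31 and -5.56 in adult testis, *Pgk2* to *Ldhc* -0.19 and -1.22, and *Gapdhs* to *Gapdh* -10.73 and -11.29. *Rnf20* in adult testis was -0.08 with median-ratio scaling and with DESeq2, 0.97 with total counts and with limma on FPKM + 0.1, and 0.84 with limma on FPKM + 1.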
